A study of Rattus norvegicus with 8 samples.

Results

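Retinoids were followed in liver through 9 genes: the alcohol dehydrogenases Adh1 and Adh4, the short-chain reductase Dhrs3, the aldehyde dehydrogenases Aldh1a1 and Aldh1a7, the retinoic acid hydroxylase Cyp26a1, the esterifying enzyme Lrat, the plasma carrier Rbp4 and the receptor Rarb. The genes were taken by name for these roles, with earlier results of these data known. Of the 9 genes, 7 had a named probe on the arrays and 6 were bright enough to test, among 10566 genes or unnamed probes tested in all. Adh1 is listed as Adh1c in the RefSeq gene table used for names. No probe could be matched to Aldh1a7 or Rarb through RefSeq accessions, the only route used, so no value is given for either.

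Retinol reaches the liver as ester in lipoprotein remnants, is secreted by hepatocytes bound to RBP4, and is stored as long-chain ester, made by LRAT, mainly in hepatic stellate cells. Retinol and retinal are interconverted by alcohol and short-chain dehydrogenases, with DHRS3 working in the reducing direction, and retinal is oxidised irreversibly to retinoic acid by the ALDH1A enzymes. Retinoic acid binds nuclear receptors that raise Cyp26a1 and Rarb, and CYP26A1 clears it by hydroxylation. Dioxins and other agonists of the aryl hydrocarbon receptor (AhR) are known to lower retinoid stores of rat liver.

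The livers came from male Sprague-Dawley rats on postnatal day 21, reared by their own dams, which were dosed during gestation and nursing. Control dams received corn oil. The 0.5MAhR dams received, in the same vehicle, 0.5 mg/kg/day of a mixture of organochlorine pesticides, polychlorinated biphenyls and methyl mercury plus AhR agonists, with a total toxic equivalent of 6.3 ng/kg/day of tetrachlorodibenzodioxin. Each array held the pooled RNA of 2 pups, giving 4 Control arrays (numbered 5 to 8) and 4 0.5MAhR arrays (numbered 1 to 4). No source used here gives the pups' litters, and p-values measure the spread between pools, and the pesticides, biphenyls, mercury and AhR agonists were given together and cannot be told apart. The comparison asks which RNAs of offspring liver differed after exposure of the dams.

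Each array carried liver RNA labelled with Cy5 against a common reference RNA of 14 rat cell lines labelled with Cy3, and every level below is the log2 ratio of Cy5 to Cy3 on that probe. Median Cy5 signals were 81 to 94 intensity units over backgrounds of 68 to 73, 42.9% to 49.2% of Cy5 spots stood well above background, and no spot was saturated. The arrays lay in 2 columns of a slide, column 1 with Control 5 and 7 and 0.5MAhR 2 and 4, column 2 with the others. Log ratios of 5995 of the 10566 genes differed between the columns at an adjusted p under 0.05. Differences of the 6 tested retinoid genes are therefore also given within columns and with the column fitted. All 9 hepatocyte markers listed, such as Alb and Hnf4a, were tested, with a mean log2 ratio of 6.15 to 6.32 on Control and 5.93 to 6.23 on 0.5MAhR arrays. Of the pancreas markers, 0 of the 3 with a probe passed the brightness filter.

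The upstream sequences show where letters of known retinoid and AhR elements lie near these genes. The 3 windows printed here run from 250 bases before to 50 bases after the gene start and are taken from RefSeq on assembly GRCr8, all on the plus strand. They were chosen because Aldh1a1 had the largest difference between the groups, Cyp26a1 is the classical retinoic acid target, and Adh4 held the most half-sites of any member. Capitals mark the half-site of retinoid receptors AGGTCA, its variant AGTTCA or the core of AhR elements, GCGTG, on either strand. The window of Aldh1a1 is chr1:227537370-227537669, that of Cyp26a1 is chr1:244883572-244883871, and that of Adh4 is chr2:229621842-229622141.
Aldh1a1: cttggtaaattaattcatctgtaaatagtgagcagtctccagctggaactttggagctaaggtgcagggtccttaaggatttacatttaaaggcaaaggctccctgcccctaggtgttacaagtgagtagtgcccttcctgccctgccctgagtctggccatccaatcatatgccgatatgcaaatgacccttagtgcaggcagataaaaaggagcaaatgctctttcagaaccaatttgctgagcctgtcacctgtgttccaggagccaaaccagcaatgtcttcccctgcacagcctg
Cyp26a1: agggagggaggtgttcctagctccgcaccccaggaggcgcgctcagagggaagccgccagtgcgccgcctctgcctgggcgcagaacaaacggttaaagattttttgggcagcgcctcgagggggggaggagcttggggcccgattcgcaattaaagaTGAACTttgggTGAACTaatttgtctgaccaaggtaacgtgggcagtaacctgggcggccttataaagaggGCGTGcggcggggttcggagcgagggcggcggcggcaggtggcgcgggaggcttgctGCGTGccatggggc
Adh4: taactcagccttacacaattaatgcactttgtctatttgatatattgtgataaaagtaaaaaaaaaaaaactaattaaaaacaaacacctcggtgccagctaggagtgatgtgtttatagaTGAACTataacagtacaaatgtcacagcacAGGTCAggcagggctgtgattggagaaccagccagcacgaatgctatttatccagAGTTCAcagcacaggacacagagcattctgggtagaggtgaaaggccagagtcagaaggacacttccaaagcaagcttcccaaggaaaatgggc
Of 33469 promoters in the table, 16.2% held AGGTCA, 14.5% AGTTCA and 29.7% GCGTG on either strand. Cyp26a1 carried 2 copies of AGTTCA on the minus strand, a direct repeat with 5 bases between that spans bases 159 to 175 of its window. That repeat, which contains both of these half-sites, was found in 3 promoters, 0.00896% of all, as was the same repeat of AGGTCA, which no member held. Cyp26a1 also carried GCGTG at bases 230 to 234 and 287 to 291. Adh4 carried AGTTCA at bases 122 to 127 and 207 to 212 and AGGTCA at bases 152 to 157. The Aldh1a1 and Dhrs3 windows held none of these motifs. Among the promoters not printed, that of Rarb held GGTTCA followed 5 bases later by AGTTCA, a repeat found in 3 promoters (0.00896%), with its only AGTTCA inside the repeat, Adh1 held 1 AGTTCA, Lrat 1 GCGTG and Rbp4 4 GCGTG. The longer AhR element TNGCGTG, which contains GCGTG, was in 4.89% of promoters and in no member's window. A match of letters is a description of these windows and shows no binding.

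Of the 6 retinoid genes tested, 0 passed an adjusted p of 0.05 in limma, where 1 gene of all tested passed (0.00946%), and 0 with slide column fitted, where 5 passed (0.0473%). In both fits, the 1 gene or 1 of the 5 genes was Cyp1a1, the classical AhR target, with a difference of 4.04 on the log2 scale (limma, adjusted p = 0.00925). Aldh1a1, Adh4 and Dhrs3 had higher means on the 0.5MAhR arrays and Adh1, Rbp4 and Lrat lower ones. The median difference of the 6 genes, 0.5MAhR minus Control, was 0.05 on the log2 scale, against -0.01 over all genes tested, of which 4939 were higher and 5627 lower. At an unadjusted p under 0.05 there was 1 of the 6 genes, Aldh1a1, against 1.53% of all genes (1.09% higher in 0.5MAhR). With slide column fitted there were 2, Aldh1a1 and Adh1, against 6.35% (3.49% higher and 2.86% lower). The groups did not overlap for Aldh1a1 alone of the 6 genes, against 1.32% of all genes (0.786% higher and 0.53% lower in 0.5MAhR). Because the 6 genes were chosen with earlier results of these data known, these shares are background and no test of the set. Every adjusted p of these 6 genes was 1.00 in limma without slide column, and those given below are with it fitted.

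**Figure D1:**
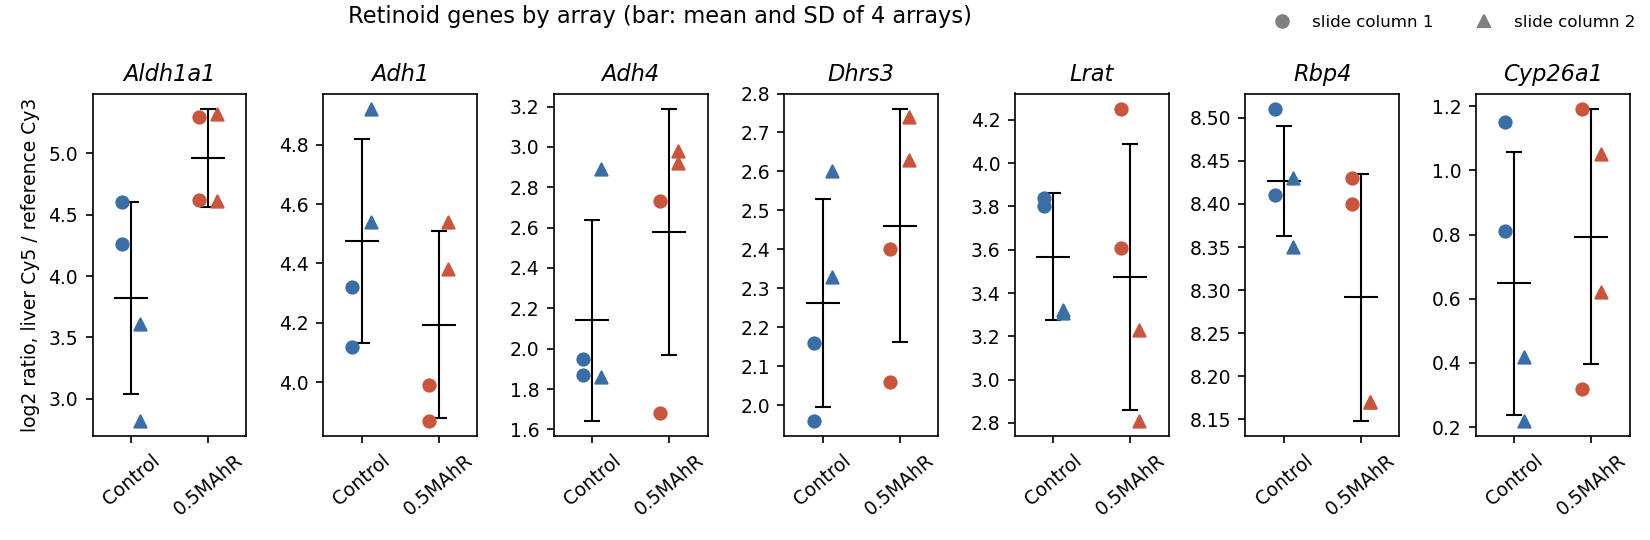
Log2 ratio of liver Cy5 to reference Cy3 for the 6 tested retinoid genes and Cyp26a1, 1 point per array, with the mean and SD of 4 arrays beside the points and a y axis of its own for each gene. Circles are slide column 1 and triangles column 2, and in the Rbp4 panel the 0.5MAhR triangles lie over each other at 8.17. The 0.5MAhR points of Aldh1a1 (4.61 to 5.32) lie above all Control points (2.82 to 4.60), and the groups overlap in every other panel.

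Retinol oxidation opens the pathway. Adh1, the class I alcohol dehydrogenase that is abundant in hepatocytes, had log2 ratios of 4.32, 4.92, 4.12 and 4.54 on Control arrays 5, 6, 7 and 8 and of 4.38, 3.99, 4.54 and 3.87 on 0.5MAhR arrays 1, 2, 3 and 4. The Control mean was 4.48 ± 0.34 (SD, n = 4) and the 0.5MAhR mean 4.19 ± 0.31 (SD, n = 4). Adh1 was lowest on the column 1 arrays of the 0.5MAhR group and highest on Control 6. The difference was -0.28 (SE 0.21, 95% interval -0.75 to 0.19), or 1.22-fold, and in limma with slide column fitted its SE was 0.10 and its interval -0.50 to -0.07 (unadjusted p = 0.0162, adjusted p = 0.619). It was -0.29 in column 1 and -0.27 in column 2. Within columns, both 0.5MAhR arrays of column 1 (3.99 and 3.87) lay below both Controls (4.32 and 4.12), while in column 2 the 0.5MAhR arrays at 4.38 and 4.54 lay below Control 6 (4.92) and close to Control 8 (4.54).

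Adh4, the class II alcohol dehydrogenase of liver, was measured by 2 probes that disagreed on single arrays. Brightness here is the mean log signal of both channels, not of liver Cy5 alone. The brighter probe gave 1.87, 2.89, 1.95 and 1.86 on Control 5, 6, 7 and 8 and 2.98, 1.68, 2.92 and 2.73 on 0.5MAhR 1, 2, 3 and 4. On that probe 3 of the 4 0.5MAhR arrays were high and 0.5MAhR 2 was the lowest array of all, while 1 Control, array 6, was high. The means were 2.14 ± 0.50 (SD, n = 4) and 2.58 ± 0.61 (SD, n = 4), a difference of 0.44 (SE 0.33, 95% interval -0.32 to 1.19), with 0.29 in column 1 and 0.58 in column 2 (limma with slide column, adjusted p = 0.866). The second probe gave 2.64, 2.26, 2.57 and 1.36 in Control and 2.38, 2.29, 2.67 and 3.61 in 0.5MAhR, in the same array order. There Control 8 was low and 0.5MAhR 4 high, whereas Control 6 did not stand out. Its difference was 0.53 (SE 0.36). On both probes the Cy5 signal was well above background on all 8 arrays, but the Cy3 reference was so on 0 of them, with net Cy3 signals of 15.5 to 27 units on the brighter probe and 11.2 to 26 on the other. The denominators of these ratios were therefore not detected, and the levels depend on the background correction. In Cy5 alone the difference on the brighter probe was 0.30.

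Dhrs3 returns retinal to retinol and is itself raised by retinoic acid in many cells. Its log2 ratio was 2.16, 2.33, 1.96 and 2.60 on Control 5, 6, 7 and 8 and 2.63, 2.06, 2.74 and 2.40 on 0.5MAhR 1, 2, 3 and 4. The high values of each group were those of column 2, and the groups overlapped. Control averaged 2.26 ± 0.27 (SD, n = 4) and 0.5MAhR 2.46 ± 0.30 (SD, n = 4). The difference of 0.20 (SE 0.18, 95% interval -0.22 to 0.61) was 0.17 in column 1 and 0.22 in column 2. With slide column fitted in limma its interval was -0.02 to 0.42 (adjusted p = 0.828).

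Aldh1a1, the retinal dehydrogenase of adult liver, had the largest difference of the 6 genes, 2.20-fold higher on average in 0.5MAhR, and did not pass the threshold. Its log2 ratio was 4.26, 2.82, 4.60 and 3.61 on Control 5, 6, 7 and 8 and 4.61, 4.62, 5.32 and 5.30 on 0.5MAhR 1, 2, 3 and 4. The background-subtracted Cy5 signal was 987, 338, 1418 and 735 intensity units on those Control arrays and 1264, 1192, 3464 and 3094 on the 0.5MAhR arrays, so that it was these liver signals that spread while the Cy3 signal lay between 91.8 and 129. Control 6 was the lowest array, 0.5MAhR 3 and 4 were the highest, and the highest Control (4.60) and the lowest 0.5MAhR array (4.61) all but met. Control averaged 3.82 ± 0.78 (SD, n = 4) and 0.5MAhR 4.96 ± 0.40 (SD, n = 4).

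The Aldh1a1 difference of 1.14 on the log2 scale had an SE of 0.37 and a 95% interval of 0.30 to 1.98 (limma, unadjusted p = 0.0137, adjusted p = 1.00), which placed it at rank 44 of the 10566 genes by p. With slide column fitted the SE was 0.30, the interval 0.48 to 1.80 and the rank 95 (limma, unadjusted p = 0.00354, adjusted p = 0.394). It was 0.53 in column 1 and 1.75 in column 2. The low Controls, 6 and 8, were both in column 2. Without Control 6 the difference was 0.81, and over all alternatives the smallest adjusted p was 0.210 in limma, reached without 0.5MAhR 2 and with slide column fitted. In the reference channel alone the Cy3 signal at this probe was 0.14 higher on 0.5MAhR arrays (limma, adjusted p = 1.00). Cy3 differences at the other 5 genes lay within -0.03 and 0.03. For Adh4 and Lrat the Cy3 reference was well above background on 0 arrays, so their small Cy3 differences cannot show a steady denominator. In Cy5 alone the Aldh1a1 difference was 1.26.

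**Figure D2:**
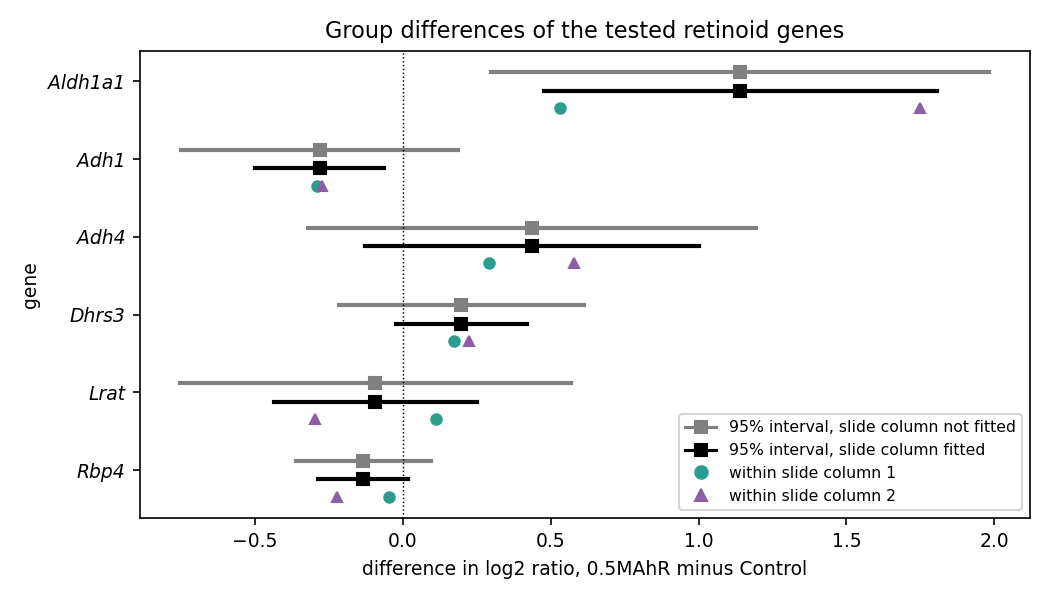
Difference in log2 ratio, 0.5MAhR minus Control, for the 6 tested retinoid genes, with 95% intervals from limma without (grey) and with (black) slide column fitted. Circles and triangles give the difference within slide column 1 and 2. Without slide column only the interval of Aldh1a1 (0.30 to 1.98) lies off 0, and with it fitted that of Adh1 (-0.50 to -0.07) does as well.

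Cyp26a1, the hydroxylase that clears retinoic acid, was near the detection limit and was not tested. Its probe was well above background on Control 5 and 7 and on 0.5MAhR 3 and 4. The log2 ratio was 1.15, 0.42, 0.81 and 0.22 on Control 5, 6, 7 and 8 and 0.62, 0.32, 1.05 and 1.19 on 0.5MAhR 1, 2, 3 and 4. The background-subtracted Cy5 signal was 54, 24, 37.8 and 19.8 units in Control and 29.8, 19.2, 63.8 and 63.2 in 0.5MAhR. High and low arrays thus occurred in both groups, and the means of 0.65 ± 0.41 (SD, n = 4) and 0.79 ± 0.40 (SD, n = 4) lay closer together than the arrays of either group. When dim probes were kept in the fit, its difference was 0.14 (SE 0.24) and limma gave an adjusted p of 1.00 over 27526 genes, with -0.22 in column 1 and 0.51 in column 2.

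Lrat, which makes retinyl esters and in liver is chiefly a stellate cell gene, had log2 ratios of 3.80, 3.32, 3.84 and 3.31 on Control 5, 6, 7 and 8 and of 2.81, 3.61, 3.23 and 4.25 on 0.5MAhR 1, 2, 3 and 4. The 0.5MAhR arrays held both the lowest and the highest value, numbers 1 and 4. Liver Cy5 was well above background on all 8 arrays, with net signals of 256 to 346 units in Control and 165 to 471 in 0.5MAhR. The Cy3 reference was so on 0 of 8 arrays (net signals of 8.25 to 17.5 units), so here too the denominator was not detected. In Cy5 alone the difference was -0.10. Means were 3.57 ± 0.29 (SD, n = 4) and 3.47 ± 0.61 (SD, n = 4), a difference of -0.09 (SE 0.29, 95% interval -0.75 to 0.57), with 0.11 in column 1 and -0.30 in column 2, and with slide column fitted the interval was -0.44 to 0.25 (limma, adjusted p = 0.943). The sign turned without 0.5MAhR 1 (0.13). No array had a second Lrat probe well above background. In bulk liver, fewer cells of a type and less RNA per cell cannot be told apart.

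Stellate cell and myofibroblast markers are given beside Lrat. Of 14 listed, 13 had a probe and 8 were tested, 5 higher and 3 lower in 0.5MAhR, with 0 past the threshold and a median difference of 0.09 (0.25 in column 1, -0.11 in column 2). Their mean log2 ratio ranged from -0.90 to -0.57 over Control arrays and from -0.76 to -0.50 over 0.5MAhR arrays. Reln (reelin) differed by -0.21, with -0.12 in column 1 and -0.29 in column 2. Des (desmin) was well above background on 2 Control and 3 0.5MAhR arrays, and Hgf on 3 Control and 2 0.5MAhR arrays. Each entered the test, and the counts above, only through the group where it was higher. For that reason the Des difference of 0.19 is given with no test. Ngfr, Gfap and Lum were not well above background anywhere, and Acta2 and Rgs5 on too few arrays to be tested. Kupffer cell markers were higher in 0.5MAhR for 7 of 8 tested (median 0.14, with 0.17 in column 1 and 0.02 in column 2). Of endothelial, cholangiocyte, lymphocyte and neutrophil, and erythroid markers, 5, 4, 4 and 2 were tested, with median differences of 0.01, 0.02, -0.15 and 0.07, and 0 in any of these lists passed the threshold. The cholangiocyte marker Krt7 and the lymphocyte marker Cd79b likewise entered through 1 group alone, where each was higher. The part of cell composition in the Lrat values was not tested.

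Rbp4, the hepatocyte product that carries retinol in plasma, had the smallest SD of the 6 genes in each group. Its log2 ratio was 8.51, 8.43, 8.41 and 8.35 on Control 5, 6, 7 and 8 and 8.17, 8.40, 8.17 and 8.43 on 0.5MAhR 1, 2, 3 and 4. The column 2 arrays of 0.5MAhR, 1 and 3, lay below every Control, and the other 0.5MAhR arrays lay among the Controls. Means were 8.43 ± 0.064 (SD, n = 4) and 8.29 ± 0.14 (SD, n = 4). The difference was -0.13 (SE 0.10, 95% interval -0.36 to 0.09), with -0.05 in column 1 and -0.22 in column 2 (limma with slide column, adjusted p = 0.832). It was -0.05 in Cy5 alone and -0.05 when ratios were only median-centred, so its size depended on the normalisation. The hepatocyte markers, in which Rbp4 is not counted, were lower for 8 of 9 in 0.5MAhR, and 0 of them passed the threshold. Their median difference was -0.13 (-0.06 in column 1, -0.21 in column 2). Their part in the Rbp4 value was not tested.

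All of these genes but Aldh1a1 differed more between slide columns than between groups. Column 2 minus column 1 was -0.71 for Lrat, 0.52 for Adh1 and 0.43 for Dhrs3, with limma adjusted p of 0.00229, 0.00565 and 0.00842. It was -0.61 for Aldh1a1, 0.61 for Adh4 and -0.16 for Rbp4, with adjusted p of 0.278, 0.0856 and 0.101. Once each column's mean was subtracted, the pairs with the Pearson r largest in size over the 8 arrays were picked out. It was -0.91 between Aldh1a1 and Rbp4, 0.78 between Aldh1a1 and Dhrs3, -0.75 between Aldh1a1 and Adh1 and 0.76 between Rbp4 and Adh1. As measured, without that subtraction, r was -0.35, 0.11, -0.72 and -0.23 for the same pairs. All other pairs had a column-centred r between -0.65 (Dhrs3 and Adh1) and 0.44 (Aldh1a1 and Adh4). These are descriptions over arrays that share the 2 groups, the slide and the reference, so they follow group differences as well as pool-to-pool variation.

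The named genes whose column-centred log ratios were most like Aldh1a1 over the 8 arrays were Mif (r = 0.978), the carboxylesterase Ces1f (0.969), Irx1 (0.965), the glutathione transferase Gsta3 (0.964) and the microsomal epoxide hydrolase Ephx1 (0.962). All genes named in this paragraph were picked by r among 6938 named genes tested, with group differences left in the values. High r and a group difference like the member's are favoured by that choice. Those like Aldh1a1 differed between the groups by 0.52, 0.66, 1.06, 0.52 and 0.98, all with an adjusted p of 1.00 in limma. Most like Lrat were Oit3 (0.988), Slc16a10 (0.979), Ptgr2 (0.955), Pomc (0.951) and Vps26c (0.948), whose differences lay between -0.05 and -0.001. Dhrs3 was followed most closely by Ramp2 (0.980), Cnn3 (0.967), Acvrl1 (0.962), Nr1d1 (0.955) and Lhpp (0.942), with differences of 0.06 to 0.36.

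A wider list of 72 retinoid genes in 5 roles, also chosen with earlier results known, was read beside these members. Of these, 62 had a named probe and 43 were tested, 17 higher and 26 lower in 0.5MAhR, with 0 past the threshold in either fit and a median difference of -0.03. In each fit 4 had an unadjusted p under 0.05, where the share over all genes was 1.53% without slide column and 6.35% with it. Among these 4, Rdh8 passed the brightness filter only through the group where it was higher. Enzymes of retinol and retinal oxidation and reduction were higher for 6 and lower for 8 of 14 tested (median -0.04), carriers and carotenoid enzymes for 5 and 4 of 9 (0.08), ester enzymes for 4 and 4 of 8 (0.05), and receptors, corepressors and target genes for 1 and 9 of 10 (-0.03). The retinal dehydrogenases Aldh1a2 and Aldh1a3, the uptake receptor Stra6 and the binding protein Crabp1 were nowhere well above background, and Cyp26b1 and Rdh10 were so on too few arrays to be tested.

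**Figure D3:**
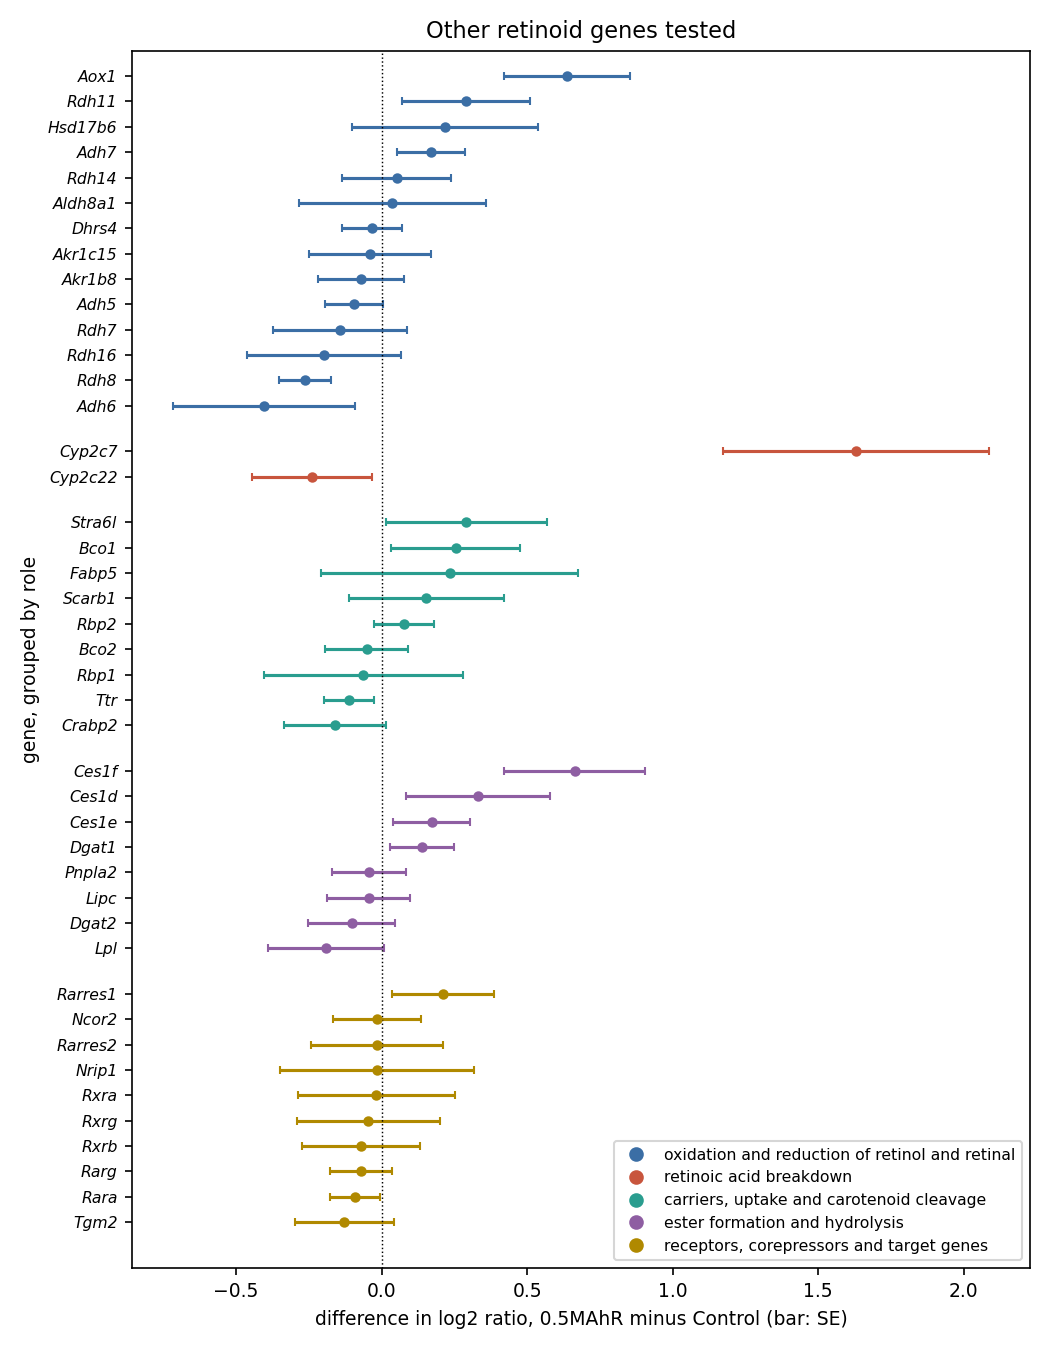
Difference in log2 ratio, 0.5MAhR minus Control, for each of the 43 tested genes of the wider retinoid list, 1 point per gene with a bar of 1 SE, coloured and grouped by role. Most points lie near 0 (median -0.03), and the largest is Cyp2c7 at 1.63.

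Cyp2c7, a P450 that hydroxylates retinoic acid in rat liver, had the largest difference of the wider list. It had 3 probes that passed the filter, and the values given are those of the brightest alone. Its log2 ratio was 3.76, 2.55, 4.07 and 1.85 on Control 5, 6, 7 and 8 and 4.65, 4.90, 4.21 and 4.99 on 0.5MAhR 1, 2, 3 and 4. The Controls of column 2, arrays 6 and 8, were the low ones, as for Aldh1a1. The groups did not overlap for Cyp2c7, against 1.32% of all genes (0.786% higher and 0.53% lower in 0.5MAhR). The Cyp2c7 difference was 1.63 (SE 0.46), with 1.03 in column 1 and 2.23 in column 2. It did not pass the threshold (limma with slide column, adjusted p = 0.131). Cyp2c22, a related retinoic acid hydroxylase and the other tested breakdown gene, differed by -0.24 (SE 0.21). That difference was -0.58 in column 1 and 0.10 in column 2.

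Aox1, an aldehyde oxidase that can take retinal to retinoic acid, was at 2.58, 3.50, 2.97 and 3.12 in Control and 3.93, 3.28, 3.91 and 3.58 in 0.5MAhR, in the same array order. Its groups overlapped through Control 6 and 0.5MAhR 2, which lie in different columns, and the difference of 0.64 (SE 0.22) was 0.66 in column 1 and 0.61 in column 2 (limma with slide column, adjusted p = 0.191). Rdh8, a retinol dehydrogenase best known from the retina, was at 0.73, 0.81, 0.75 and 0.93 in Control and 0.45, 0.52, 0.60 and 0.60 in 0.5MAhR. Its Cy5 signal was well above background on 3 Control arrays and 2 0.5MAhR arrays, so it entered the test through the Control group alone, where it was higher. For that reason its difference of -0.26 and its lack of overlap between the groups are given with no test or share. Rdh8 is nonetheless 1 of the 4 genes counted above. Rdh14, counted with the higher enzymes above, entered likewise through 0.5MAhR alone (2 Control and 3 0.5MAhR arrays).

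Among ester enzymes, Ces1f had log2 ratios of 3.57, 3.87, 3.80 and 4.29 in Control and 4.77, 3.95, 5.04 and 4.43 in 0.5MAhR. Control 8 overlapped 0.5MAhR 2, and the difference of 0.66 (SE 0.24) was 0.50 in column 1 and 0.82 in column 2 (limma with slide column, adjusted p = 0.299). Ces1d, a carboxylesterase able to hydrolyse retinyl esters, differed by 0.33 (SE 0.25), with -0.004 in column 1 and 0.67 in column 2. Of the carriers, Ttr (transthyretin, the plasma partner of RBP4) differed by -0.11 (SE 0.09), with -0.11 in column 1 and -0.12 in column 2. Bco1, which cleaves carotene to retinal, differed by 0.25 (SE 0.22), with 0.55 in column 1 and -0.04 in column 2. The retinoic acid receptor gene Rara differed by -0.09 (SE 0.09), with -0.10 in column 1 and -0.09 in column 2. The retinoid-responsive Rarres1 differed by 0.21 (SE 0.18), with 0.09 in column 1 and 0.33 in column 2. All of these genes had an adjusted p of 1.00 in limma without slide column.

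**Figure D4:**
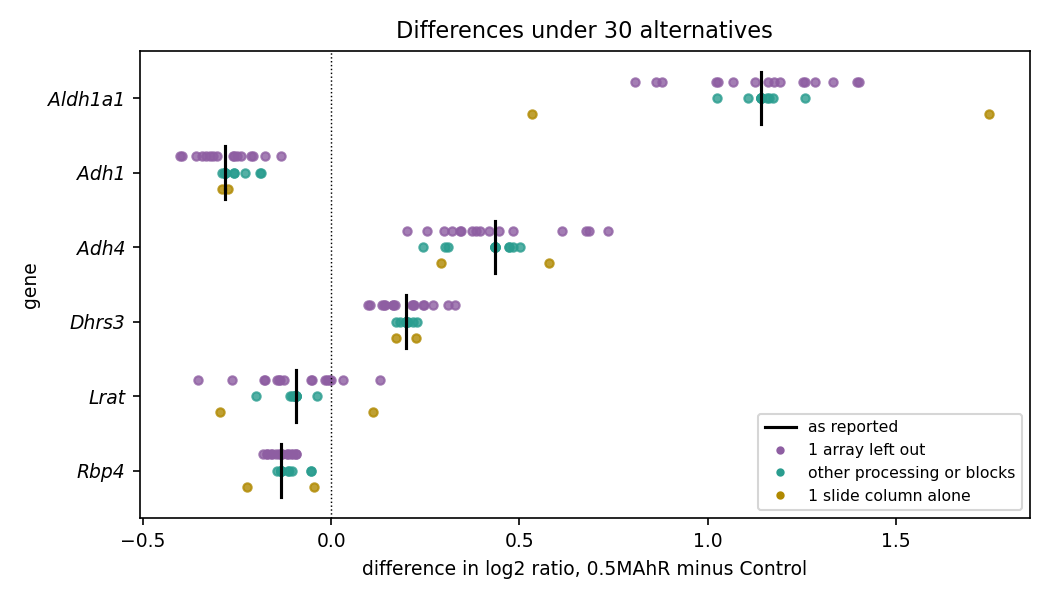
Difference in log2 ratio, 0.5MAhR minus Control, of the 6 tested retinoid genes under each of 30 alternative settings, with the value as reported as a black bar and points coloured by kind of alternative (1 array left out, other processing or blocks, 1 slide column alone). Aldh1a1 stays between 0.53 and 1.75, and Lrat is the gene whose points lie on both sides of 0.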

How the data were processed

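Per the file headers, Agilent Feature Extraction 11.0.1.1 wrote the spot intensity values, processed signals (an alternative here) and their log10 ratio of red over green, which was not used. A deposited table of log2 Cy5/Cy3 values, another alternative, was made by the authors in a way the sources used here do not give, with its centring unknown (r of 0.997 to 0.998 with ratios computed from the scanner intensities, column medians -0.0389 to -0.0326). Per the labels, liver was always Cy5 and the reference always Cy3, so dye bias was shared and not measured. In R 4.3.3 with limma 3.58.1, deposited median foreground and background intensity values were corrected by normexp (offset 50) and loess-normalised with control spots given no weight. Outlier spots were dropped (771 to 956 per array) and spots of a probe averaged. Of 30367 probes, 18005 received a symbol through RefSeq accessions (GRCr8, names only). A probe was tested if well above background in Cy5 on 3 of 4 arrays of a group. The brightest probe, by mean log signal over both channels, stood for each gene. Groups were compared by lmFit and eBayes, two-sided, with Benjamini-Hochberg adjustment over 10566 genes at 0.05, and the fit was tested on simulated data. Cy3 alone was fitted after normexp and quantile normalisation. Precision is limited by 4 arrays per group.

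Members, gene lists and tests were chosen with earlier results of these data known. Named were all members, the 2 tested genes of each retinoid role with the smallest unadjusted p and any past the threshold, genes without a tested probe, and the 5 genes most like each of 3 members. Alternatives were slide column or row as a block, columns alone, other background, normalisation and filter settings, and leaving out each array.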

Additional observations from a re-analysis of the deposited data

Results flagged for a closer look

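With 9 probes in 2 groups of 4 arrays, 18 sets of values were examined for an array far from the rest, and chance marks about 1 in 20 such sets. In both cases below the gap to the nearest array was above Dixon's 95% critical value as a share of the group's range. On the brighter Adh4 probe, Control 6 stood at 2.89, above the 1.86 to 1.95 of the other Controls, which the second Adh4 probe did not show. On the dim Lrat probe, nowhere well above background, 0.5MAhR 1 stood lowest at 0.14.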

How the results depend on the processing

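Each of the 6 tested genes was recomputed under 30 alternatives, and 0 passed an adjusted p of 0.05 in any of them. The sign was kept in 30 of 30 for Aldh1a1, Rbp4, Dhrs3, Adh1 and Adh4 and in 27 of 30 for Lrat, whose difference of -0.09 was 0.11 in slide column 1 alone, 0.13 without 0.5MAhR replicate 1 and 0.031 without that array and with slide column fitted. Leaving out 1 array gave 0.81 to 1.40 for Aldh1a1, -0.18 to -0.09 for Rbp4, -0.35 to 0.13 for Lrat, 0.10 to 0.33 for Dhrs3, -0.40 to -0.13 for Adh1 and 0.20 to 0.74 for Adh4. Other processing of all 8 arrays gave 1.02 to 1.26 for Aldh1a1, -0.14 to -0.05 for Rbp4 and -0.20 to -0.04 for Lrat. It gave 0.17 to 0.23 for Dhrs3, -0.29 to -0.19 for Adh1 and 0.24 to 0.50 for Adh4. Over all genes the count past the threshold, 1 as reported, was 5 with slide column fitted, 2 in column 1 alone and 0 in column 2 alone, with slide row fitted, with processed signals and with probes above background on all 8 arrays, where unadjusted p under 0.05 gave 592, 76, 551 and 128 genes in limma. It was 0 to 2 without 1 array and 1 to 11 when slide column was fitted as well. The cause was not tested. Pool numbers gave no pairing, since Control pools were numbered 5 to 8 and 0.5MAhR pools 1 to 4. Each slide row held 1 array of each group, in different columns, and with row as a block the differences were as reported, with limma p of 0.00955 for Aldh1a1 and 0.322 to 0.797 for the other 5 genes (adjusted p = 1.00 each). Signal over background limits what can be said of Cyp26a1, and pooling of 2 pups hides differences between animals.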
